A study of Mus musculus with 12 samples.

Results

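Wild-type cardiac precursors (CPs) were derived from mouse embryonic stem cells. Of their 3473 distinct BRG1-binding regions, 162 lay at annotated promoters of protein-coding genes on both strands (4.66%, 95% Wilson interval 4.01 to 5.42). A region was taken when it was narrower than 1000 bp and overlapped the 1 kb on either side of annotated transcription start sites (TSSs) of at least 2 protein-coding genes, at least one on each strand, in GENCODE M1 on the mm9 genome. The members were thus chosen by the listed positions of the regions, so the number of members and their reach to both genes are a description. The cells were wild-type stem cells of strain W4/129S6, grown as embryoid bodies with VEGF, Activin and BMP4 and then as monolayers with FGFs. The list of regions rests on 2 libraries made with an antibody against BRG1 and 1 input library, and it gives 1 set of positions without a value for each library. That the list describes CPs rests on its label, since its number of distinct positions is the number of sites the study gives for cardiomyocytes, while its number of rows is the number given for CPs. The other 9 libraries of the series, which come from cardiomyocytes of wild-type cells and from BAF170 and BAF60c knockout cells, did not enter. No read count, height or P-value stands behind a region in the list, so the depth is unknown, no replicate error can be given and no test between groups was made. Intervals beside shares and medians cover counting error only. The labelled cell type could not be checked against marker expression, since positions carry no expression level.

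BRG1 is the ATPase of BAF chromatin remodelling complexes, which use ATP to slide or evict nucleosomes. At a bidirectional promoter, the start sites of neighbouring genes lie back to back and transcription leaves the shared stretch in both directions. Such promoters are mostly CpG islands without a TATA box, and genes of DNA repair, RNA processing and mitochondria are well known among them. GC boxes bound by SP1 family factors, CCAAT boxes bound by NF-Y, and ETS and NRF1 sites are typical of the stretch between the start sites.

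The sequences between the TSSs of 8 divergent members are shown because the words compared below between gap and region are read from such stretches. They were the stretches with the most kinds of word among those without an annotated exon. Each is the plus strand of mm9, 5′ to 3′, from the base after the minus-strand gene's TSS to the base before the plus-strand gene's TSS. Capitals mark a match on either strand to a GC box (GGGCGG), an ETS word (CCGGAAG), an NF-Y word (CCAAT), a cAMP response element (CRE, TGACGTCA), an E-box (CACGTG), an E2F word (TTCCCGC), an RFX word (GTTGCC), an NRF1 word (GCATGCGC) or a GATA word (AGATAA). Neighbouring matches may overlap, as GC boxes do with each other and with the E2F word.
Npc2 and Isca2: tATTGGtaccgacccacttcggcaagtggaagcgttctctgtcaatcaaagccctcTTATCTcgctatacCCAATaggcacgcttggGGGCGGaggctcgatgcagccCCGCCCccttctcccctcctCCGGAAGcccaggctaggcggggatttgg
Cox4nb and Cox4i1: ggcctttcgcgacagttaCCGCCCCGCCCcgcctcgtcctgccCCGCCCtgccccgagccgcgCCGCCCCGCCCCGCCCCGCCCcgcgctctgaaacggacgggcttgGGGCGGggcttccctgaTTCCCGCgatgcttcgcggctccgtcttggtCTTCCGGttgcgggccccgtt
Tmem135 and Fzd4: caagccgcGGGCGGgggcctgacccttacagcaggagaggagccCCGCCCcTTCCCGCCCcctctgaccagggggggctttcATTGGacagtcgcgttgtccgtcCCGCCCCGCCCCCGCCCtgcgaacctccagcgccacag
Zswim7 and Ttc19: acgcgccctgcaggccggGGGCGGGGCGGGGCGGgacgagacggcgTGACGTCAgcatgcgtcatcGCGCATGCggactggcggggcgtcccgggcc
Rgl1 and Arpc5: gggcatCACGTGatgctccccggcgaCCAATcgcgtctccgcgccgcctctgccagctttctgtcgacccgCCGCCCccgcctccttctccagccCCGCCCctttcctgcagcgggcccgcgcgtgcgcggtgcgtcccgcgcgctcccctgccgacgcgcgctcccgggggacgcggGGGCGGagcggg
Cinp and Tecpr2: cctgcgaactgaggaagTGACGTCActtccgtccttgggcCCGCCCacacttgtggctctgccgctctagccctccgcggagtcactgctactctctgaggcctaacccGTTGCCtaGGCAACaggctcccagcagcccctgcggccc
Glyr1 and Ubn1: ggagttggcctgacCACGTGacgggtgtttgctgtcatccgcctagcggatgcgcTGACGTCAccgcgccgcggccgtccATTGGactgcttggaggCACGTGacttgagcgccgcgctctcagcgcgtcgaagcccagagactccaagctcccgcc
Prkar1b and Heatr2: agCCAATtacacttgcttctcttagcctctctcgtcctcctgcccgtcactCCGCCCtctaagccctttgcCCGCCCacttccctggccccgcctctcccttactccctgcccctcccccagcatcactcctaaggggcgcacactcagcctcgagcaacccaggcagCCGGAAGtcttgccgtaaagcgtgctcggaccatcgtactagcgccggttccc

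Npc2, a lysosomal cholesterol carrier, and Isca2, an iron-sulphur cluster assembly factor, start 158 bp apart around chr12:86114063-86114219, and the BRG1 region lay in Npc2 at chr12:86113686-86113805. Cox4i1, a subunit of respiratory complex IV, and its neighbour Cox4nb share chr8:123192013-123192189 with 8 GC boxes, and a region of 740 bp covered both TSSs. Tmem135 and Fzd4, a Wnt receptor, flank chr7:96552733-96552875, with 6 GC boxes and 1 CCAAT box. A region of 840 bp, centred in Tmem135, covered both TSSs and the whole of this stretch. Zswim7 and Ttc19, an assembly factor of respiratory complex III, flank chr11:62094878-62094974, where a CRE and an NRF1 word lie close together. The region midpoint lay 381.5 bp inside Zswim7. Rgl1 and Arpc5, a subunit of the actin-nucleating Arp2/3 complex, flank chr1:154613482-154613671, and the region midpoint lay 613.5 bp inside Arpc5. Cinp and Tecpr2 flank chr12:112127326-112127473, Glyr1 and Ubn1 flank chr16:5050004-5050160, and Prkar1b and Heatr2 flank chr5:139625956-139626176. In these last 3 pairs the region was centred in the plus-strand gene, and that of Cinp and Tecpr2 reached into the stretch between the TSSs. Of the 8 regions, 4 were centred in the plus-strand gene, 3 in the minus-strand gene and 1 between the TSSs.

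The members reached 329 genes, 1.47% of the 22380 protein-coding genes, in 162 different pairs. Any listed region lay within 1 kb of 11.9% of protein-coding genes. Of the members, 157 reached 2 genes and 5 reached 3, among them Cetn4 and Bbs12 with Fgf2, a growth factor gene, and Atf5 and Nup62 with Il4i1. In another of these 5, Reep3 and Jmjd1c, the annotation gives the symbol Jmjd1c to 2 gene identifiers. The TSSs nearest to the midpoint were divergent, with a gap between them, at 114 members (70.4%, interval 62.9 to 76.9). At the other 48 (29.6%) the genes overlapped at these nearest TSSs, so that no gap separates them. When the 5′ end of each gene took the place of the nearest transcript TSS, the divergent share was 54.3%. Both genes were also protein-coding in RefSeq (GRCm38) at 91 of the 114 divergent members but at 24 of the 48 overlapping ones. The label of a promoter of 2 protein-coding genes therefore held in both annotations for 115 of 162 members. Clone names or Gm numbers stood in for a gene symbol at 70 of the 329 genes.

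The gap between the TSSs of the 114 divergent members had a median of 223 bp (interval 174 to 271, quartiles 131 and 468). The closest pairs were Zbtb49 with Lyar at 13 bp and 4930597O21Rik with Gng12 at 28 bp. RefSeq lists 4930597O21Rik as a long non-coding RNA. Gtf3c4, a subunit of the RNA polymerase III factor TFIIIC, and the helicase gene Ddx31 start 46 bp apart. Lyrm4 and Fars2, the mitochondrial phenylalanine tRNA synthetase, start 54 bp apart. Thoc4, an mRNA export adaptor, and Anapc11, a subunit of the anaphase-promoting complex, start 56 bp apart. Pcmt1 and Lats1, a kinase of the Hippo pathway, start 73 bp apart. At the other end were Tas1r1 with Nol9 (795 bp), Fiz1 with Zfp524 (804 bp), AA415398 with Foxj3 (938 bp) and Abca17 with Abca3 (1017 bp). The gap is bounded by the reach of the rule.

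Most regions were centred outside the gap, in one of the genes, although many of them reached into it. The midpoint lay between the TSSs at 31 of the 114 divergent members (27.2%, interval 19.9 to 36.0), in the plus-strand gene at 42 and in the minus-strand gene at 41. For comparison, the gap made up a median of 10.03% of the stretch from 1 kb before the left TSS to 1 kb after the right one. The 83 midpoints inside a gene lay a median of 115.5 bp downstream of that gene's TSS (interval 91.5 to 154.5, quartiles 53.0 and 238.5). At Hspd1 and Hspe1, which encode the mitochondrial chaperonin and its co-chaperonin, the region lay 272.5 bp inside Hspd1. At Pcmt1 and Lats1 it lay 318.5 bp inside Lats1. At Gtf3c4 and Ddx31 it was centred 5.5 bp from a TSS in the gap and covered both TSSs. The share in the gap is sensitive to small shifts: with the gap widened by 100 bp on each side it was 57.9%, and with gene 5′ ends it was 10.2%.

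**Figure D1:**
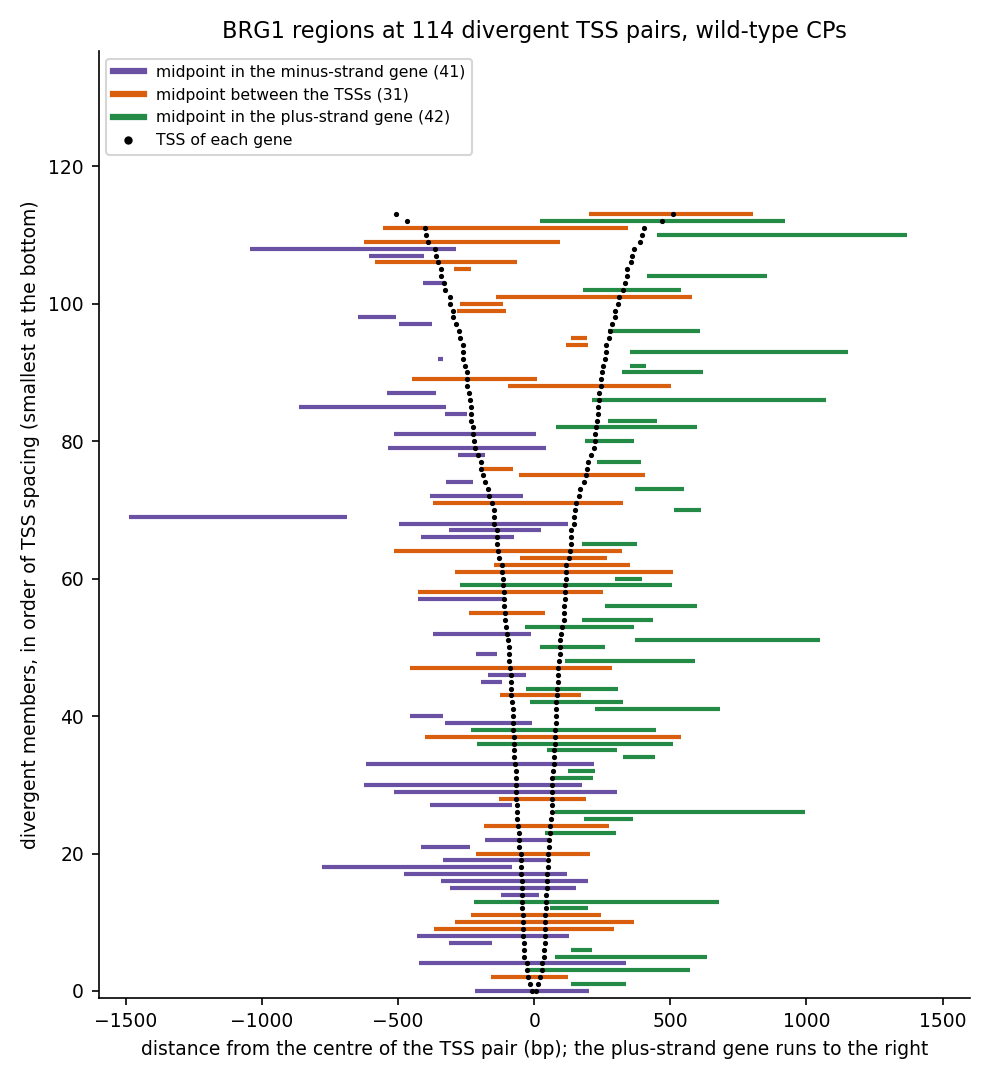
Each row is 1 of 114 divergent members in order of TSS spacing, the bar is the BRG1 region, the black points are the TSSs, and the x axis is the distance in bp from the centre of the TSS pair. The 41 purple and 42 green regions are centred in the minus-strand and the plus-strand gene, and the 31 orange regions are centred between the TSSs.

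A region often left one or both TSSs uncovered. Of the 114 divergent members, 46 covered no TSS of the pair, 38 covered one and 30 covered both. Among the 83 regions centred in a gene, 41 covered no TSS, 27 covered one and 15 covered both, so 41 of the 114 (36.0%, interval 27.7 to 45.1) lay wholly beside the gap, while among the 31 centred in the gap 5 covered none and 15 covered both. Gap-centred regions had a median width of 480 bp (interval 320 to 660) and gene-centred regions one of 340 bp (240 to 400). The gap share was 5 of 21 for TSSs up to 100 bp apart, 5 of 32 from 101 to 200 bp, 6 of 18 from 201 to 300 bp, 5 of 20 from 301 to 500 bp and 9 of 22 from 501 to 1000 bp. The Wilson intervals of these 5 shares overlapped, and they ran from 6.86% to 61.3%. At 36 divergent members the midpoint fell in an intron, at 56 in an exon outside coding sequence, at 15 in coding sequence and at 7 between genes. These classes use all annotated transcripts, so a midpoint between the nearest TSSs can also fall in an exon or intron. The gap is thus not always a stretch between genes. Among the 48 overlapping members 26 midpoints fell in coding sequence.

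The offset from the TSS was shared with regions at annotated promoters of 1 strand only. Midpoints lay downstream of the nearest TSS at 72.8% of divergent members (interval 64.0 to 80.1) and at 72.0% (69.98 to 73.9) of the 2034 narrow regions at promoters of one strand only. The members were nearer to a TSS. The midpoint was within 100 bp of the nearest TSS at 51.8% of divergent members (42.7 to 60.7) and at 35.5% of one-strand regions (33.5 to 37.7). Downstream midpoints of one-strand regions had a median distance of 178.5 bp (168.5 to 192.5). A member has TSSs of at least 2 genes from which the nearest is taken, and its reach to the far gene limits its distance. With a reach of 2 kb the median of divergent members was 133.5 bp (110.5 to 167.5), which still did not overlap the interval of one-strand regions. For one-strand regions with an edge within 500 bp of a TSS the median was 173.5 bp (161.5 to 186.5), again apart from the interval of divergent members. With both changes together the intervals overlapped.

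**Figure D2:**
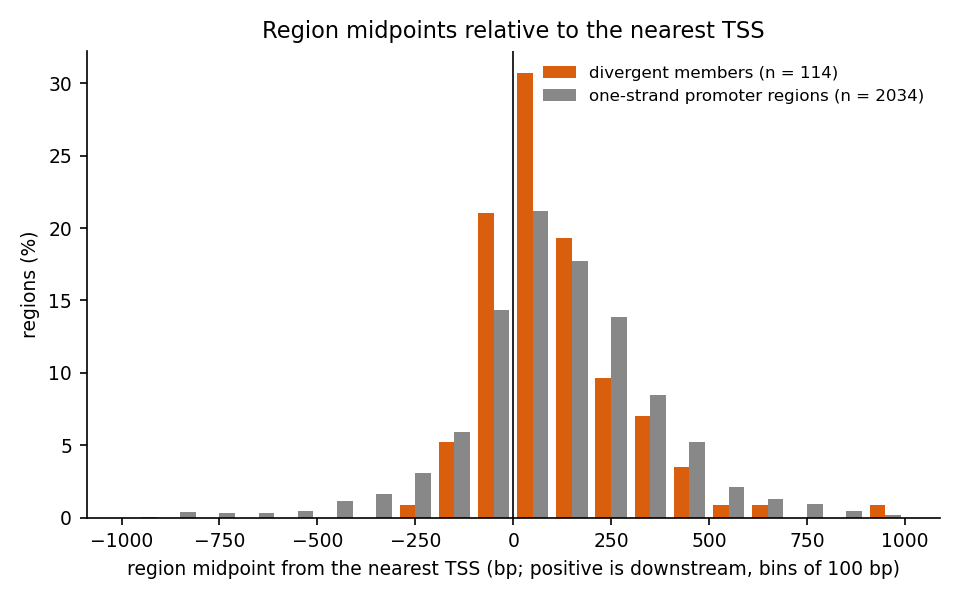
The x axis is the distance of the region midpoint from the nearest TSS in bins of 100 bp (positive values are downstream), and the y axis is the percentage of the 114 divergent members (orange) or of the 2034 one-strand promoter regions (grey). The bin from 0 to 100 bp downstream holds 30.7% of divergent members and 21.2% of one-strand regions.

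The 83 regions centred in a gene lay on the side with the higher GC content and in the longer gene more often than not. In windows of 300 bp, the GC content at the region was higher than at the mirrored point of the other gene in 66 of 83 pairs (79.5%, interval 69.6 to 86.8), with medians of 72.3% at the region and 61.7% at the mirrored point. Among the 67 pairs whose windows did not overlap it was higher in 57, and the medians were 71.7% and 60.3%. The ratio of observed to expected CpG was higher at the region in 54 of 83 pairs. The region lay in the longer gene of the pair in 61 of 83 (73.5%, interval 63.1 to 81.8), and the gene holding the region had a median length of 31.4 kb against 16.5 kb for its partner. With both genes protein-coding in RefSeq the counts were 56 of 67 for GC content and 46 of 67 for length. Across annotated pairs without a listed region, the longer gene had the higher GC content in its first 300 bp in 350 of 678 (51.6%, interval 47.9 to 55.4). At Hspd1 and Hspe1 the GC content was 75.7% at the region in Hspd1 and 69.0% at the mirrored point in Hspe1. Regions in this list were GC-rich at promoters of either kind, so GC content moved with the side, and its part in which side was listed was not tested.

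**Figure D3:**
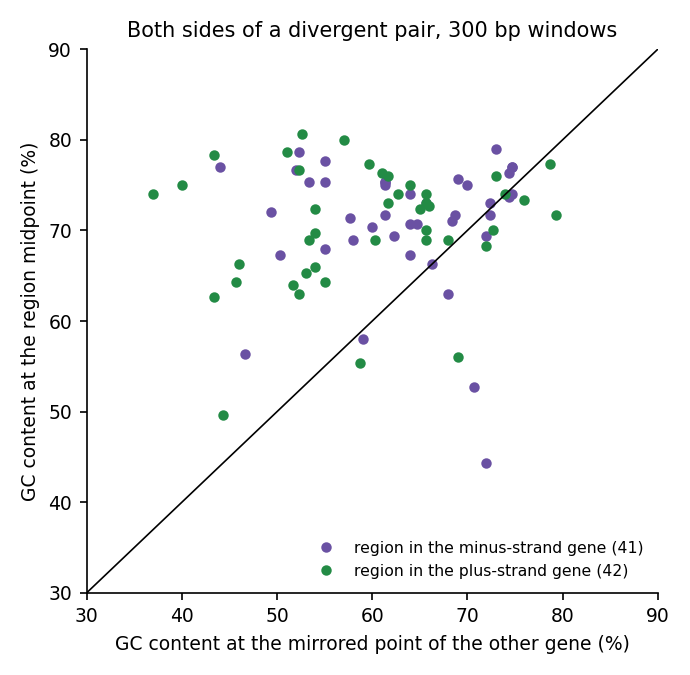
Each point is 1 of 83 divergent members whose region is centred in a gene, with the GC content (%) of the 300 bp window at the region on the y axis and at the mirrored point in the partner gene on the x axis. The line marks equal values, and 66 points lie above it.

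The CCAAT box and the ETS word, typical of bidirectional promoters, were found in the gap more often than in regions centred in a gene. Among the 83 members with the region centred in a gene, the gap had a median length of 191 bp and the region one of 340 bp. Since 42 of these regions hold part or all of the gap, a word in the gap can also be in the region. The CCAAT box was present in 31 gaps and 11 regions, with 25 members holding it in the gap alone and 5 in the region alone. The ETS word was present in 17 gaps and 9 regions, 12 in the gap alone and 4 in the region alone. GC boxes were present in 60 gaps and 53 regions. The E2F word had the opposite order, with 7 gaps and 14 regions, as had the RFX word with 9 and 12. The YY1 and TATA words were in as many gaps as regions (3 and 2). Among the 41 regions that covered no TSS, with median lengths of 222 bp for the gap and 180 bp for the region, the CCAAT box was in 19 gaps and 3 regions, the ETS word in 9 and 2, the GC box in 31 and 20, the RFX word in 5 and 3 and the E2F word in 3 and 6. The CRE was found in 3 gaps and no region, and the NRF1 word in 3 gaps and 1 region. Xrcc3, a recombination repair gene, and Zfyve21 start 297 bp apart with 7 CCAAT matches in the gap, and the region of 100 bp lay 414.5 bp inside Zfyve21. At promoters without an opposite-strand partner the CCAAT box also differed with placement. It was in 27.2% of 300 bp windows on the TSS of such genes with a region, against 11.5% of windows on midpoints of one-strand regions. These shares were 10.2% and 6.54% for the ETS word, 81.8% and 79.5% for the GC box and 10.9% and 11.6% for the E2F word. The order for the CCAAT box and the ETS word was thus not particular to members. A word marks only a match of letters, so it shows no bound factor.

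**Figure D4:**
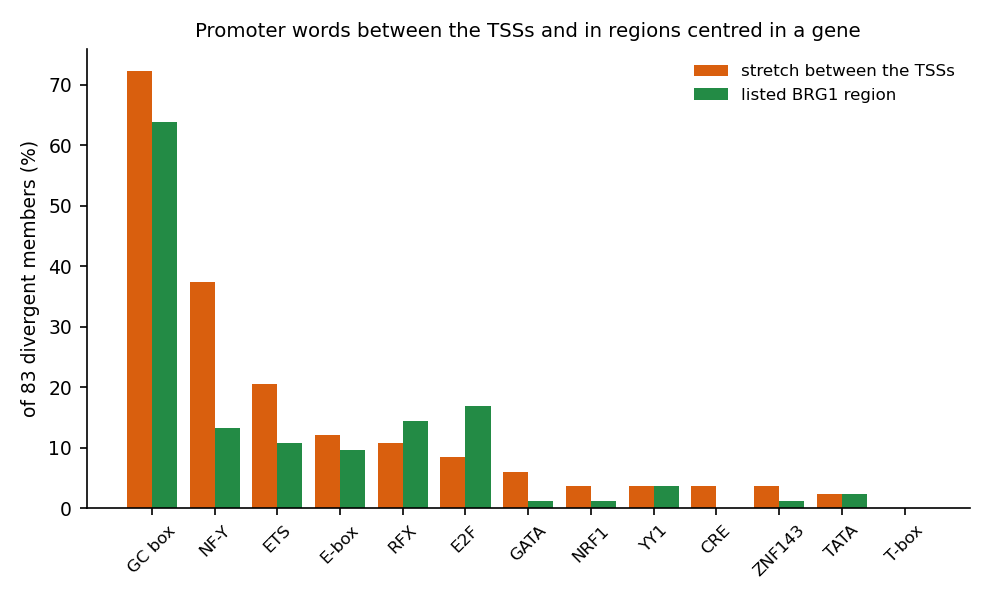
For the 83 divergent members with the region centred in a gene, bars give the percentage (y axis) that hold each word (x axis) at least once between the TSSs (orange) or in the listed BRG1 region (green). The CCAAT box of NF-Y is in 37.3% of gaps and 13.3% of regions, while the E2F word is in 8.43% of gaps and 16.9% of regions.

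In windows of 300 bp on the midpoint, the intervals of members and of one-strand promoter regions overlapped for the words given here. The GC box was in 74.7% of the 162 members and in 79.5% of one-strand promoter regions, against 44.4% of all promoter windows of this length. Those promoter windows lay on the TSS of a single gene or on the centre of a pair, so their placement differs from that of windows on region midpoints. The CCAAT box was in 13.0% of members and 11.5% of one-strand regions, against 35.9% of all promoter windows. The ETS word was in 10.5% of members (interval 6.66 to 16.2) and 6.54% of one-strand regions, against 10.4% of all promoter windows. Windows on the centre of the 791 annotated divergent pairs held the CCAAT box in 43.0% and the ETS word in 28.2%. Placed this way, the 105 pairs with a region held the CCAAT box in 39.0%, the ETS word in 21.0%, the NRF1 word in 8.57% and the CRE in 3.81%. Windows on the TSS of the 2049 single genes with a region held them in 27.2%, 10.2%, 4.54% and 3.03%. The TATA word was in 1.90% and 3.32% of these pairs and single genes, and the GATA word in 4.76% and 2.44%. The E2F word was in 14.8% of members, 11.6% of one-strand regions and 5.69% of all promoter windows. The RFX word was in 9.88%, 8.65% and 12.7% of the same classes, and the E-box in 6.17%, 5.11% and 7.10%. The NRF1 word was in 1.23%, 1.38% and 2.95%, and the CRE in 0.617%, 0.590% and 2.20%. Other stretches gave 2 differences beyond the intervals. In the regions as listed the GC box was in 69.1% of members (61.6 to 75.7) and 79.4% of one-strand regions (77.6 to 81.1). In windows of 500 bp the E2F word was in 25.9% (19.8 to 33.2) and 17.8% (16.2 to 19.6). The TATA word (TATAAA) was in no member window of 300 bp, which allows a share of up to 2.32% (upper Wilson bound), in 1.52% of one-strand regions and in 11.5% of all promoter windows. The GATA word was in 1.85% of members, 2.46% of one-strand regions and 8.76% of all promoter windows, and in 25.6% of the 900 narrow regions away from promoters. The T-box word (AGGTGTGA) was in no member window, in 0.246% of one-strand regions, 1.89% of those 900 regions and 0.967% of all promoter windows. The YY1 word (AAGATGGC) was in 3.70% of members and 3.60% of all promoter windows, and the ZNF143 word (ACTACAA) was in 1.23% and 3.13%.

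In width and base composition the members were like other promoter regions. Their median width was 340 bp (interval 300 to 420, range 20 to 940), against 360 bp (340 to 380) at one-strand promoters and 180 bp (180 to 200) away from promoters. Their median GC content was 73.7% (72.3 to 74.6), against 74.6% at one-strand promoters and 55.6% (54.3 to 56.4) away from promoters. The median CpG ratio was 0.909, against 0.910 and 0.288. More than 1 row of the list gave the same positions for 27 of the 162 members (16.7%), for 18.3% of one-strand regions and for 7.67% of regions away from promoters. Why positions recur in the list is not stated. Spata1 with Gng5, a G protein subunit, and Amigo2 with Fam113b stood on 4 rows each, and the other 25 repeated members on 2. Only 4 members had another listed region within 10 kb.

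The widest members were those of Gm10517 with Trp53bp2 and of Tmem189 with Cebpb, at 940 bp each. Trp53bp2 encodes a p53-binding protein and Cebpb a leucine zipper transcription factor. Zcrb1 with Pphln1, Thpo with Chrd, and Tas1r1 with Nol9 followed at 920 bp. Chrd encodes the BMP antagonist Chordin, and Thpo the cytokine thrombopoietin. The narrowest were Tmed8 with Samd15 (20 bp), Reep3 with Jmjd1c (40 bp), and Zfp277 with Dock4 and 0610007P14Rik with Ttll5 (60 bp each). The highest GC contents were also those of short regions, 85.0% for the 20 bp and 40 bp regions and 83.8% for the 80 bp region of Plagl2 with Pofut1. The lowest were 50.7% at Zswim7 with Ttc19, 53.0% at Zcrb1 with Pphln1 and 54.7% at BC106179 with St6gal1. Just past the width limit, regions of 1040 bp at Dnajb4 with Fubp1, 1080 bp at Dido1 with 2310003C23Rik and 1100 bp at Fam35a with Glud1 met the rest of the rule, as did 24 wide regions in all. The members farthest from their second gene were those of Thpo with Chrd (979 bp), 1520402A15Rik with Pomgnt1 (938 bp) and Tas1r1 with Nol9 (849 bp). Ptms with A230083G16Rik fell just outside at 1065 bp, and Btf3l4 with Txndc12 and Rgs9bp with Ankrd27 at 1101 bp each.

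Seen from the annotation rather than from the list, most divergent pairs had no BRG1 region. Of 791 pairs of protein-coding genes with 5′ ends at most 1 kb apart, 105 had a listed region within 1 kb of the pair centre (13.3%, interval 11.1 to 15.8). Of 19468 genes without a protein-coding partner on the opposite strand within 2 kb, 10.5% had one within 1 kb of their 5′ end (interval 10.1 to 11.0), a difference of 2.75 percentage points (0.518 to 5.33). The windows had the same length, but that of a pair holds start sites of both genes. By spacing, 12.3% of pairs up to 100 bp apart had a region, 14.5% from 101 to 200 bp, 10.8% from 201 to 300 bp, 8.33% from 301 to 500 bp and 21.7% from 501 to 1000 bp. The intervals of these shares overlapped.

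The order of pairs and single genes changed with base composition. When pairs were counted, the 300 bp window lay on the pair centre, while for single genes it lay on the TSS. A class of base composition thus does not hold like stretches of the 2 kinds of promoter. The effect of this placement on the order was not tested. At a CpG ratio from 0.75 to 1 a region was listed at 12.8% of 376 pairs and 22.0% of 4912 single genes, a difference of -9.20 points (-12.4 to -5.28). At a ratio of 1 or more the shares were 19.6% of 163 pairs and 29.9% of 1727 single genes. Below 0.25 they were 10.3% of 29 pairs (3.58 to 26.4) and 0.333% of 5714 single genes. Within the class from 0.75 to 1, single genes had a median GC content of 67.7% and pairs one of 64.0%. When classes were formed on GC content, the difference was -1.57 points (-4.51 to 2.18) from 60 to 70% GC and -6.24 points (-13.4 to 1.97) above 70%, so the interval held 0 in both. Below 50% GC it was 10.7 points (4.98 to 20.6) and from 50 to 60% it was 4.69 points (1.75 to 8.94), with pairs above single genes. Counted per gene, with the region midpoint in the first 1 kb of that gene, paired genes had a region less often than single genes in both classes from 60% GC up. The shares were 4.12% and 10.5% from 60 to 70% GC, a difference of -6.38 points (-7.87 to -4.52), and 17.1% and 27.9% above 70%, a difference of -10.8 points (-15.0 to -5.81). Below 50% the difference was 2.30 points (0.208 to 8.03), and from 50 to 60% it was -1.26 points (-2.19 to 0.422). Both genes of a pair share the stretch between them and are not independent, so these intervals are too narrow.

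**Figure D5:**
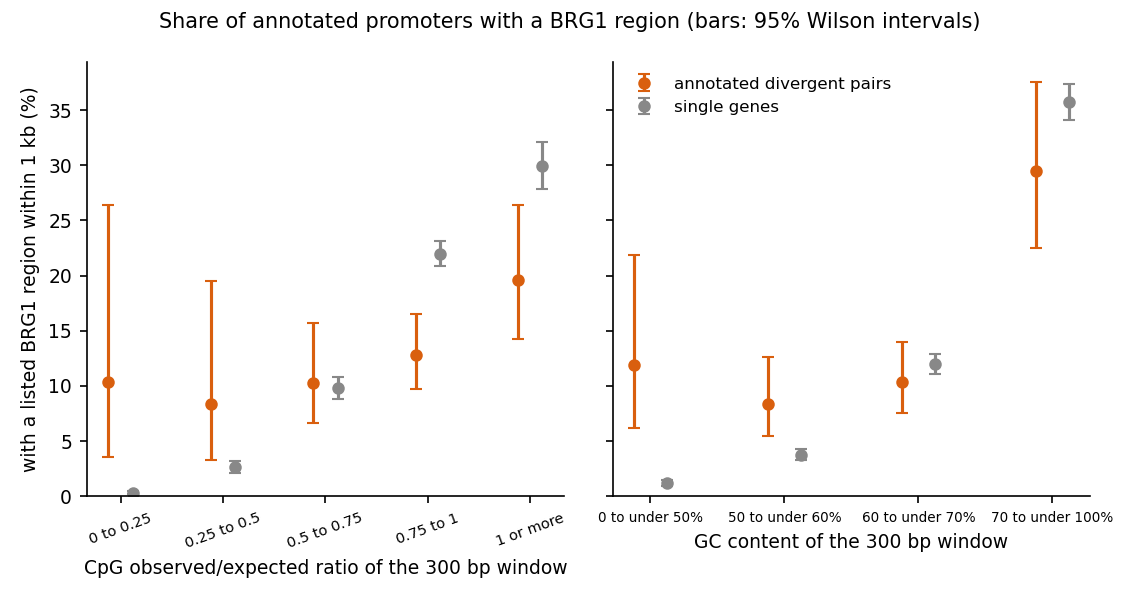
The y axis is the percentage of annotated divergent pairs (orange, n = 791 in all) or single genes (grey, n = 19468) with a listed BRG1 region within 1 kb, by CpG ratio (left) and by GC content (right) of the 300 bp window on the pair centre or TSS, with 95% Wilson intervals. Single genes lie above pairs at CpG ratios over 0.75 (22.0% and 12.8% in the class up to 1), while the intervals overlap in the GC classes from 60% up.

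By function, genes of RNA processing and of the respiratory chain were the most frequent at members among the 12 lists. Of all protein-coding genes, 1.47% were at a member. For RNA processing it was 12 of 198 (6.06%), and 15.2% of that list had any listed region, against 11.9% of all protein-coding genes. Of the same list, 23.7% sat in annotated divergent pairs with or without a region. This share ran from 1.03% to 40.3% over the 12 lists, and that of all protein-coding genes is not given here. By the rule a member lies at genes of both strands, so a list rich in such pairs has more genes that can be at one. The RNA processing list takes in the RNA polymerase subunit genes Polr2b, Polr2l and Polr3c. Polr3c, a subunit of RNA polymerase III, overlaps Rnf115 by 17 bp at their TSSs. Ddx31 lies 46 bp from Gtf3c4, Polr2b, the second largest subunit of RNA polymerase II, 88 bp from 2610024G14Rik, and the splicing factor gene Prpf38a 125 bp from Orc1. Dhx32, with Fank1, and the cleavage and polyadenylation nuclease gene Cpsf3, with Itgb1bp1, start 174 and 200 bp from their partners. The region was centred in the partner gene at Polr2b, Prpf38a and Cpsf3, in the listed gene itself at Dhx32, Dhx30, Hnrnpd and Hnrnph3, and between the TSSs at the other 4 divergent members of the list. For the respiratory chain it was 6 of 112 (5.36%). Among them were Atp5c1 with Kin at 83 bp, Cox4i1 with Cox4nb at 178 bp and Uqcrh with Lrrc41 at 474 bp. Atp5j was also among them, and it overlaps Gabpa by 501 bp at their nearest TSSs. Cox4nb is in the list through its symbol and is a subunit of the ER membrane complex, so 5 of the 6 belong there by function. The symbol pattern leaves out Ttc19, the complex III factor named above. Of the respiratory list, 23.2% sat in annotated divergent pairs and 9.82% had any listed region, against 11.9% of all protein-coding genes. Gabpa encodes an ETS factor.

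DNA repair and replication genes made up 5 of 149 (3.36%), at 4 members. Of this list, 26.8% sat in annotated divergent pairs and 8.72% had any listed region, against 11.9% of all protein-coding genes. Orc1, a subunit of the origin recognition complex, shares its promoter with Prpf38a, and the region of 180 bp lay 209.5 bp inside Orc1. Polh, a translesion DNA polymerase, and Xpo5, the pre-miRNA exporter, start 230 bp apart, with the region in Xpo5. Among chaperone and proteasome genes 4 of 197 (2.03%) were at a member, namely Hspd1, Hspe1, Anapc11 and Hspb11. Hspb11 encodes a subunit of the intraflagellar transport machinery. Eif1a and Eif2a were the 2 of 88 translation factor and tRNA synthetase genes, and Fars2 the 1 of 99 in the mitochondrial ribosome and translation list. Cell cycle genes made up 3 of 172. They were Cdc27, a subunit of the anaphase-promoting complex, Cdc40, which encodes a splicing factor, and Kif1c, a transport kinesin. Only Cdc27 has a mitotic role among them.

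No gene of the symbol lists for the cytosolic ribosome (84) or the replication-dependent histones (67) was at a member. The ribosomal protein gene Rpl36al, which the pattern leaves out, was at one, 113 bp from Mgat2. By the annotation, 27 of the 67 histone genes sat in annotated divergent pairs. None of the histone genes had any listed region. A region of any kind lay at 42 of 237 developmental transcription factor genes (17.7%) and at 49 of 159 chromatin genes (30.8%), against 11.9% of all protein-coding genes. At members there were 1 of the 237 (0.422%) and 2 of the 159 (1.26%), the latter near the 1.47% of all protein-coding genes. In annotated pairs there were 4 and 15 of them. The chromatin list is not complete, since Bap1 and Jmjd1c were also at members and are outside it. Foxj3, a forkhead factor gene, was 938 bp from AA415398, with a region of 900 bp centred 3.5 bp inside Foxj3. Kdm2b, a histone H3K36 demethylase gene, was 258 bp from Orai1, the pore of the store-operated calcium channel. Phf7 was 271 bp from Bap1, a histone H2A deubiquitinase gene. Of 195 contractile and cardiac channel genes, 28 (14.4%) had any listed region, and 2 sat in annotated divergent pairs. At a member there was only Myl4 (0.513%), the atrial essential light chain of myosin. It starts 271 bp from Cdc27, and the region of 340 bp at chr11:104411426-104411765 was centred 110.5 bp inside Cdc27.

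Of 16 gene pairs known as bidirectional from textbooks, 3 had a member. At Hspd1 and Hspe1 the region was chr1:55144506-55144685 and at Col4a1 and Col4a2, which encode the basement membrane collagen IV chains, chr8:11312186-11312965. The region at the collagen pair was 780 bp wide and covered both TSSs. The nearest region to Surf1 and Surf2 was 16897 bp away. It was farther, from 41392 bp upwards, for Atm and Npat, Prkdc and Mcm4, Brca1 and Nbr1, Ranbp1 and Trmt2a, Ppat and Paics, Gart and Son, Mrps12 and Sars2, Tap1 and Psmb9, Pdcd10 and Serpini1, Col4a3 and Col4a4, and Col4a5 and Col4a6. A pair without a region is one where none passed the threshold of the list, which does not show that BRG1 was absent.

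Members were found on all 19 autosomes, from 2 on chromosome 19 to 17 on chromosome 11. Chromosome X held 18 annotated divergent pairs and 16 listed regions but no member.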

How the data were processed

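BRG1 ChIP-seq of wild-type CPs was used. Cells were double crosslinked and chromatin was digested with MNase. According to the study's methods, reads were trimmed with fastq-mcf, aligned to mm9 with Bowtie and filtered on mapping quality, and bins enriched over input DNA were called at a P-value threshold. How the 2 BRG1 libraries became 1 list is not given in the sources used here. The deposited list, labelled as that of CPs, holds 4791 rows of positions in bp, with 3473 distinct regions, and why positions recur is not stated. The authors' file gives no count, signal or P-value. Starts and ends lie on a grid of 20 bp, which bounds the precision of every distance. Starts are printed counted from 1.

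TSSs were those of all transcripts of protein-coding genes in GENCODE M1, matched to the mm9 genome (NCBIM37). RefSeq (GRCm38) was used for gene names and types only, by symbol or synonym, and 300 of 329 genes matched. For each member the TSS nearest to its midpoint was taken on each strand. GC content, the CpG ratio and words on both strands were read from mm9 with pysam 0.24.0. In windows of 300 bp, a mirrored window lies at the same distance on the other side of the pair centre. Shares carry 95% Wilson intervals, medians order-statistic intervals and differences of shares Newcombe intervals, all for counting error only. The code was tested on simulated regions. Python 3.11.15, numpy 2.4.6, scipy 1.17.1 and matplotlib 3.10.9 were used.

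The members, the 12 gene lists (by symbol pattern), the 13 words and the 16 textbook pairs were chosen with earlier results of these data known. Genes named are up to 6 a list by smallest TSS spacing, the 6 smallest and 4 largest spacings, the 5 widest and 3 narrowest members, those at the width and reach limits, those with most rows, the 3 highest and 3 lowest GC contents, the textbook pairs, and up to 8 printed sequences (no annotated exon, not on chromosome 18). No member reached 4 genes. Outside this rule, the members reaching 3 genes, Rpl36al, Ttc19, Bap1 and Jmjd1c as genes the lists leave out, Dhx30, Hnrnpd and Hnrnph3, Xrcc3 with Zfyve21 as an example of words, and the words compared in the gap were picked after their values were seen. The comparison by CpG ratio and GC content, the mirrored windows and the gene lengths were also added then. Alternatives covered the promoter reach, TSS set, width limit, windows and annotation. Some genes that the rule would name are not reported here.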

Additional observations from a re-analysis of the deposited data

How the results depend on the processing

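Of 92 alternative values for 41 results, 72 stayed within the range of counting error (counts of members within 1.5 times) and 20 moved. Among the alternatives for words and gene lists 45 stayed and 9 moved. For the other results 27 of 38 stayed and 11 moved, a larger part. Only the difference between pairs and single genes could change sign, since the other results are counts, shares and medians. It was negative in its alternatives counted here. Outside them it was positive, at 2.75 points over all promoters, 10.7 points below 50% GC and 4.69 points from 50 to 60% GC. The number of members ranged from 115 to 193 over 8 of the alternatives, and was 88 when gene 5′ ends had to be divergent, without overlap and at most 1 kb apart. With the 5′ end of each gene, the divergent share was 54.3%, the median spacing 139 bp and the share of midpoints in the gap 10.2%. With the closest TSSs of a pair the median spacing was 119 bp, and with the gap widened by 100 bp on each side the share of midpoints in it was 57.9%. The median width was 440 bp when every row was counted. Single genes had a region at 9.93%, 11.0% and 9.21% with windows of 500 bp, with windows of 2 kb and with regions narrower than 1000 bp only. The difference between pairs and single genes of -9.20 points at CpG ratios of 0.75 to 1 was -1.57 points at 60 to 70% GC. This comparison and its alternatives were added after seeing the data, as were those on RefSeq, on mirrored windows and on regions centred in a gene that cover no TSS, where the share of regions with the CCAAT box was 7.32% and with the ETS word 4.88%. The cause of these shifts was not tested beyond what each setting changes by construction. No paired analysis was possible because positions carry no value for each library, and for the same reason the effect of depth and of either library is unknown.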
